A study of Homo sapiens with 40 samples.

Results

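HSD3B1 (ENSG00000203857.10) encodes a steroid dehydrogenase and isomerase, and its RNA was described per library in human bronchial epithelial cells given the cytokine IL-13, with its relatives HSD3B2 (ENSG00000203859.10) and HSD3B7 (ENSG00000099377.14) for contrast. These 3 genes were taken by symbol from the 62263 genes of the deposited table. HSD3B1 and HSD3B7 passed the filter on low counts and were among the 16735 genes tested, and HSD3B2 did not pass it. HSD3B1 was chosen by its measured difference between cells with and without IL-13, so that response is given as a description with no test.

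The HSD3B enzymes oxidise the 3-beta hydroxyl group of steroids and move the adjacent double bond. HSD3B1 and HSD3B2 turn pregnenolone into progesterone and dehydroepiandrosterone into androstenedione, a step that every active steroid hormone pathway passes through. HSD3B2 is the form of the adrenal gland and gonads, and HSD3B1 is best known from placenta, skin and other peripheral tissues, where steroid precursors from the blood are converted locally. HSD3B7 acts on hydroxylated sterols in bile acid synthesis and not on the hormone precursors. IL-13 signals through a receptor shared with IL-4 to the transcription factor STAT6, and both cytokines have been described to raise HSD3B1 in several human epithelial cell types.

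The cells were BEAS-2B, an immortalised line from human bronchial epithelium. There were 2 constitutive hairpin lines, shControl (called control here) and shIGF2BP3 (called knockdown), whose hairpin targets the RNA-binding protein IGF2BP3. Both were grown in 10% serum and starved in 2% serum, and 100 ng/ml of IL-13 was then added to some cultures for 24 h while the rest stayed unstimulated. RNA was taken as total RNA (input) and as polyribosome-bound RNA (polysome), which gave 8 groups of 5 libraries, 40 in all. Sample titles carry siC and siIGF2BP3, but the growth protocol speaks of hairpins, and that is the reading used here. With 1 line per hairpin, an effect of the knockdown cannot be told apart from other differences between the 2 lines, and nothing in the labels says whether the 5 libraries of a group came from separate cultures, so p-values measure the spread between these libraries.

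Input libraries held 14044352 to 40441061 estimated counts and polysome libraries 1816848 to 34082191, with 3 polysome libraries of the knockdown line under 5000000. The targeted gene, IGF2BP3 (ENSG00000136231.14), measured 35.2 ± 11.3 CPM (counts per 1000000, SD, n = 5) in unstimulated control input and 24.9 ± 3.02 in knockdown input, and with IL-13 35.4 ± 6.72 and 25.8 ± 6.29. In polysome libraries the group means ran from 9.15 to 11.2 CPM. The lines overlapped in all 4 settings, so directions between lines rest on the labels. The keratins of simple epithelium were high (KRT18 at a mean of 651 TPM, transcripts per 1000000, and KRT8 at 621), while CDH1 (0.165 TPM), EPCAM (0.462 TPM), KRT5 (0.0721 TPM) and TP63 (0.0212 TPM) were near 0. Blood and endothelial markers PTPRC, CD3E, PECAM1 and VWF were at most 0.0206 TPM on average, and CD68 was at 10.3 TPM. Of 6 markers of steroid-producing cells, INHA (1.84 TPM) and CYP11A1 (0.363 TPM) passed the filter, and NR5A1, STAR, CYP17A1 and MC2R were at or below 0.0167 TPM.

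The sequences around the annotated start sites are shown because these windows of the 3 genes differ in matches to the letters that STAT proteins are known to bind. Each run is the RefSeq sequence on build GRCh38.p14, + strand, from 250 bases before to 50 bases after the start, written 5′ to 3′. Capitals mark a match to TTCNNNNGAA, the spacing known for STAT6, or to TTCNNNGAA, the spacing known for other STAT proteins. Each motif is its own reverse complement, so both strands were covered by 1 search, and no window shown held both motifs. HSD3B1 lies at chr1:119506953-119507252, HSD3B2 at chr1:119414681-119414980 and HSD3B7 at chr16:30984957-30985256.
HSD3B1: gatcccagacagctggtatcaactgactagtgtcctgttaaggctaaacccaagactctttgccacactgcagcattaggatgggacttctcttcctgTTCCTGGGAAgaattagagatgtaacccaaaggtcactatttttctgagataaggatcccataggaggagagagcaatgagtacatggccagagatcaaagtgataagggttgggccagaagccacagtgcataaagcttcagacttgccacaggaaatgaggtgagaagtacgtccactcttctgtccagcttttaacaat
HSD3B2: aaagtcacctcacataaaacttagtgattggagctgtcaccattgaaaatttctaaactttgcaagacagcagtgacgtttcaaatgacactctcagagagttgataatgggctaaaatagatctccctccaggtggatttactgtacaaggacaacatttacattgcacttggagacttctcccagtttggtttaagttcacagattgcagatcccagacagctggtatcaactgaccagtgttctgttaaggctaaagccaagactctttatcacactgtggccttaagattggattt
HSD3B7: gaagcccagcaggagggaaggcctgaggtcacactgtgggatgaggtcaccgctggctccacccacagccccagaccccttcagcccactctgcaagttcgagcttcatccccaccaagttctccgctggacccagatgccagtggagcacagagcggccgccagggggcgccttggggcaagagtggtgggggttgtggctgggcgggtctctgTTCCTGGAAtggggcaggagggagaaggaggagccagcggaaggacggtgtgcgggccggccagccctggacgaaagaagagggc

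HSD3B1 held TTCCTGGGAA, a match to TTCNNNNGAA, at -152 to -143 from the start site used here. From a second annotated start site of HSD3B1, whose window is not shown, the same match lay at -159 to -150. HSD3B7 held TTCCTGGAA, a match to TTCNNNGAA, at -35 to -27. Neither motif was found in the HSD3B2 window. Among 35116 windows of the same length, 6.44% held TTCNNNNGAA and 7.66% held TTCNNNGAA, so a match is a description of these letters and no evidence of a site. The first 89 bases of the HSD3B1 window aligned to the last 89 bases of the HSD3B2 window with 78 identical (87.6%). The HSD3B1 motif lay after that stretch, so the HSD3B2 bases that would match it were outside the window shown.

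HSD3B1 RNA was close to absent without IL-13 and present in every library with it. In the 20 unstimulated libraries it was above 0 in 6, with at most 4 estimated counts, and in the 20 libraries with IL-13 it was above 0 in all, with at least 22. In unstimulated control cells it had 1.69 and 1 estimated counts in input replicates 3 and 5 and 1 in polysome replicate 5. In unstimulated knockdown cells it had 2 each in input replicates 2 and 4 and 4 in polysome replicate 2. A library at 0 allows up to 3 counts, which is 1.65 per 1000000 unscaled counts in the shallowest unstimulated library. Summed over libraries, 12 counts of 413206013 without IL-13 (0.0290 per 1000000, exact Poisson 95% interval 0.0150 to 0.0507) stood against 3474 counts of 499300115 with IL-13 (6.96 per 1000000, 6.73 to 7.19), a ratio of 239.6. These intervals cover counting error only. In bulk RNA, more cells with the transcript and more transcript per cell cannot be told apart.

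With IL-13, the input libraries of control cells measured 1.44, 8.06, 2.21, 2.81 and 4.34 CPM of HSD3B1 in replicates 1 to 5, a mean of 3.77 ± 2.62 (SD, n = 5). In knockdown input the values were 5.69, 4.67, 6.22, 6.25 and 5.07 CPM, a mean of 5.58 ± 0.700 (SD, n = 5). Control replicate 2 was above every knockdown library, and the other 4 control libraries were below all of them. In polysome RNA of control cells the values were 5.09, 8.63, 6.14, 15.5 and 5.00 CPM, a mean of 8.07 ± 4.40 (SD, n = 5). In knockdown polysome RNA they were 8.48, 10.1, 8.12, 12.6 and 9.53 CPM, a mean of 9.77 ± 1.79 (SD, n = 5). Control polysome replicate 4 was the highest of the 40 libraries. The last knockdown polysome value rested on 22 counts, with an exact Poisson 95% interval of 5.97 to 14.4 CPM.

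**Figure D1:**
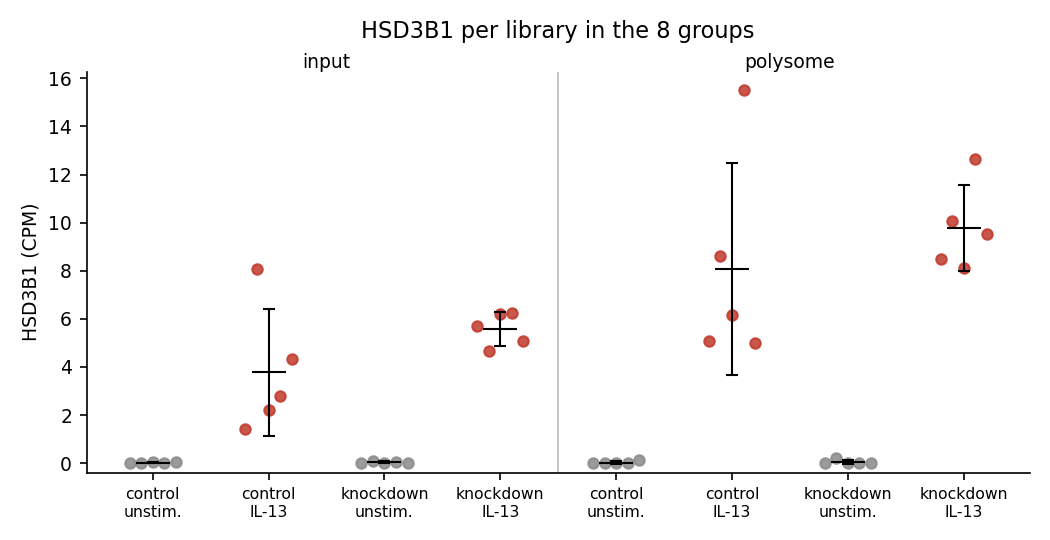
HSD3B1 in each library, in CPM (vertical axis), for the 8 groups of 5 libraries (horizontal axis, input left and polysome right of the grey line). Grey points are unstimulated and red points IL-13 libraries, and black marks are the mean ± SD. All 20 unstimulated points lie at or below 0.224 CPM and all 20 IL-13 points at or above 1.44 CPM.

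The 8 group means of HSD3B1 ordered as knockdown polysome, control polysome, knockdown input and control input with IL-13, and then the 4 unstimulated groups at 0.0188 to 0.0449 CPM. Ranges of neighbours in this order overlapped throughout the IL-13 groups (5.00 to 15.5 CPM in control polysome against 8.12 to 12.6 in knockdown polysome and 4.67 to 6.25 in knockdown input), and no order can be read among the unstimulated groups, where each group had 1 or 2 libraries above 0.

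HSD3B1 did not differ between the lines beyond the spread of the libraries, in either fraction. In input with IL-13 the difference of knockdown minus control was 0.56 ± 0.487 (SE) on the log2 scale, with a 95% interval of -0.43 to 1.56 and an adjusted p of 1.00 in edgeR's quasi-likelihood test over all genes. A two-sided exact permutation test of log2(CPM + 1) over the libraries, 5 against 5, gave p = 0.119 (adjusted over the 5 HSD3B1 tests 0.198). In polysome RNA with IL-13 the edgeR difference was 0.27 ± 0.487 (SE), interval -0.72 to 1.26, adjusted p = 0.919, and the exact permutation p was 0.286 (adjusted 0.357). As folds these intervals run from 0.743 to 2.94 in input and from 0.606 to 2.40 in polysome RNA, so that a higher or a lower level in knockdown cells was within reach of both. In edgeR this comparison called 0% of all genes in input (502 at an unadjusted p under 0.05, and 55 called by the Wald test of DESeq2) and 0.0896% in polysome RNA. With single libraries left out the input difference ran from 0.36 to 1.05 (the last without control replicate 2) and the polysome difference from 0.14 to 0.65 (the last without control replicate 4), with adjusted p-values of 0.657 or more.

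HSD3B1 was higher in polysome than in input RNA of cells given IL-13, and the call for this depended on how the lines were combined. In control cells the log2 difference of polysome minus input was 1.10 ± 0.491 (SE), a 2.15-fold difference, with an adjusted p of 0.0726 in edgeR, and in knockdown cells it was 0.81 ± 0.490, 1.75-fold, adjusted p = 0.198. Neither line alone was called, where 39.3% of all genes were called in each. Averaged over both lines, a comparison chosen after seeing the data, the difference was 0.96 ± 0.347 (SE), 1.94-fold with a 95% interval of 1.19 to 3.16 and an adjusted p of 0.0191 in edgeR. That comparison called 53.3% of all genes, 21.4% higher and 31.9% lower in polysome RNA. Without control polysome replicate 4 the average was 0.76 with an adjusted p of 0.0692, so the call rested on that library. In control cells alone, the difference was 1.58 with an adjusted p of 0.0158 without input replicate 2 and 0.72 with an adjusted p of 0.288 without polysome replicate 4.

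The median over all genes was -0.19 in control, -0.23 in knockdown and -0.23 on average, and HSD3B1 stood at percentile 90.3, 84.2 and 88.4 of all genes tested. Replicate by replicate, the ratio of CPM + 1 in polysome to CPM + 1 in input was 2.50, 1.06, 2.23, 4.33 and 1.12 in control cells. In knockdown cells it was 1.42, 1.96, 1.26, 1.88 and 1.74. The added 1 brings these ratios closer to 1 than ratios of CPM. All 5 ratios in each line were above 1, and those of control replicates 2 and 5 were close to it. On the deposited TPM scale, as log2(TPM + 1), polysome exceeded input in 4 of the 5 control pairs and in 5 of 5 knockdown pairs. A two-sided exact sign-flip permutation test over the 5 numbered pairs gave p = 0.0625 in each line (adjusted 0.156), the smallest that 5 pairs allow, and on the TPM scale the exact p was 0.188 in control and 0.0625 in knockdown cells (both adjusted 0.234). The labels do not say whether equal numbers share a culture. With IL-13 no control library correlated best with its own number across fractions (r from -0.49 to 0.16), and in knockdown cells only number 4 did. An unpaired exact permutation test, added after seeing the data, gave p = 0.00794 in knockdown cells, whose input and polysome libraries did not overlap, and p = 0.0556 in control cells, where they did.

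**Figure D2:**
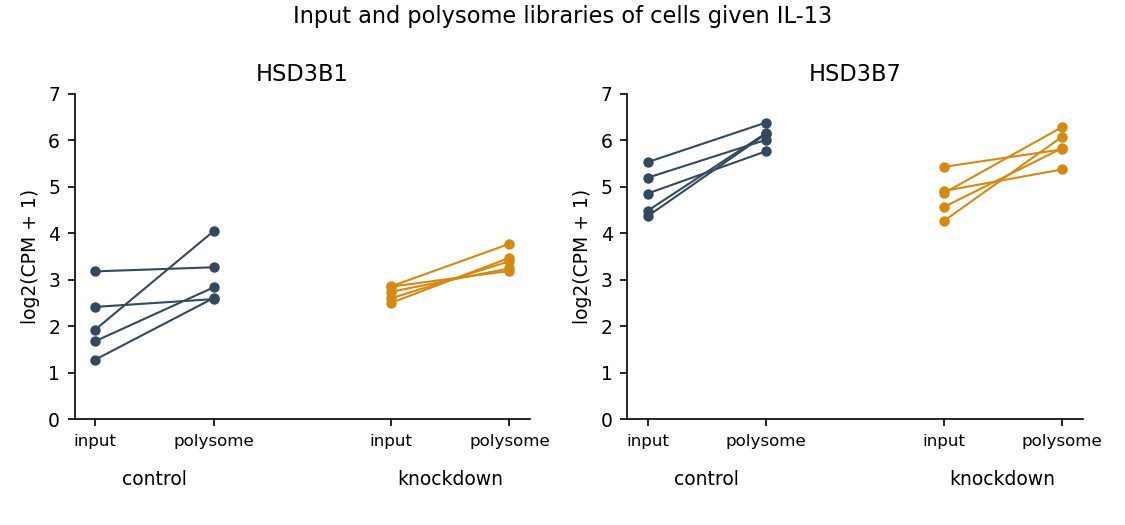
HSD3B1 (left) and HSD3B7 (right) in input and polysome libraries of cells given IL-13, as log2(CPM + 1), for control (blue) and knockdown (orange) cells. Lines join libraries that carry the same replicate number, which the labels do not tie to a shared culture. All 10 lines rise for each gene, by the least for HSD3B1 in control replicates 2 and 5.

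Polysome loading of HSD3B1 was also compared between the lines as the difference of the 2 fraction effects. Knockdown minus control was -0.29 ± 0.687 (SE) on the log2 scale, with a 95% interval of -1.69 to 1.11 and an adjusted p of 1.00 in edgeR, and the exact permutation p was 0.540. The sign turned without control polysome replicate 4 (0.08). Over all genes 0.00598% were called in this comparison.

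HSD3B2, the adrenal and gonadal form, was listed at 0 in all 40 libraries, with and without IL-13. Its coding sequence matches that of HSD3B1 at 93.5% of aligned positions (1116 and 1119 bases), so the counts of the pair depend on how reads from shared stretches were assigned. Of the 2426 distinct 31-base words in the HSD3B1 transcripts, 8.08% also occur in HSD3B2 transcripts and 13.7% in those of any other gene. Among the pseudogenes, HSD3BP2 and HSD3BP3 were at 0 in all libraries, HSD3BP4 had 2.01 estimated counts in 1 library and HSD3BP1 had 6 in 1 library. HSD3BP5 was above 0 in 9 libraries, 4 unstimulated and 5 with IL-13, with at most 11 counts in an unstimulated control polysome library. With IL-13 no pseudogene had more than 3 counts in a library, against 22 in the lowest HSD3B1 library.

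HSD3B7, the bile acid pathway enzyme, was present in all 40 libraries and showed no called change with IL-13. Its coding sequence matches HSD3B1 at 53.4% of aligned positions. In control input it measured 11.9, 13.6, 23.8, 40.5 and 25.3 CPM unstimulated and 19.6, 21.4, 45.1, 27.9 and 35.5 CPM with IL-13. In knockdown input it measured 36.2, 24.1, 18.8, 23.2 and 23.4 CPM unstimulated and 41.9, 27.9, 18.1, 22.6 and 29.0 CPM with IL-13. The treatments overlapped in both lines, with means of 23.0 ± 11.4 against 29.9 ± 10.6 in control and 25.2 ± 6.52 against 27.9 ± 8.97 in knockdown (SD, n = 5). Averaged over the lines the IL-13 effect in input was 0.26 ± 0.207 (SE) on the log2 scale, interval -0.16 to 0.69, with an adjusted p of 1.00 in edgeR. That comparison called 0.149% of all genes.

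In control polysome RNA HSD3B7 measured 27.0, 52.3, 55.7, 71.2 and 79.0 CPM unstimulated and 69.1, 70.0, 82.1, 53.2 and 63.2 CPM with IL-13. In knockdown polysome RNA it measured 32.2, 66.4, 66.1, 83.2 and 46.4 CPM unstimulated and 54.7, 76.5, 66.1, 55.6 and 40.3 CPM with IL-13. Here too the treatments overlapped in both lines. The IL-13 effect in polysome RNA was 0.12 ± 0.207 (SE), interval -0.31 to 0.54, adjusted p = 1.00 in edgeR, where 0.209% of all genes were called. The lines differed by 0.01 ± 0.207 in input and -0.07 ± 0.207 in polysome RNA (knockdown minus control, both treatments averaged) (edgeR adjusted p = 1.00 and 0.924), where 0.406% and 1.38% of all genes were called. Both line differences were close enough to 0 to change sign when single libraries were left out.

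The fraction effect of HSD3B7 was called. Over both lines and treatments it was 1.20 ± 0.149 (SE) higher on the log2 scale in polysome RNA, 2.30-fold with a 95% interval of 1.86 to 2.83 and an adjusted p of 4.71e-09 in edgeR. In this comparison 65.1% of all genes were called, 26.2% higher and 38.9% lower, with a median of -0.24, and HSD3B7 stood at percentile 93.5. With IL-13 alone the difference was 1.17 ± 0.296 in control cells, where the 5 input and 5 polysome libraries did not overlap, and 1.08 ± 0.297 in knockdown cells, where 1 input library (41.9 CPM) exceeded 1 polysome library (40.3 CPM). Whether HSD3B1 and HSD3B7 differ in loading was not tested.

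**Figure D3:**
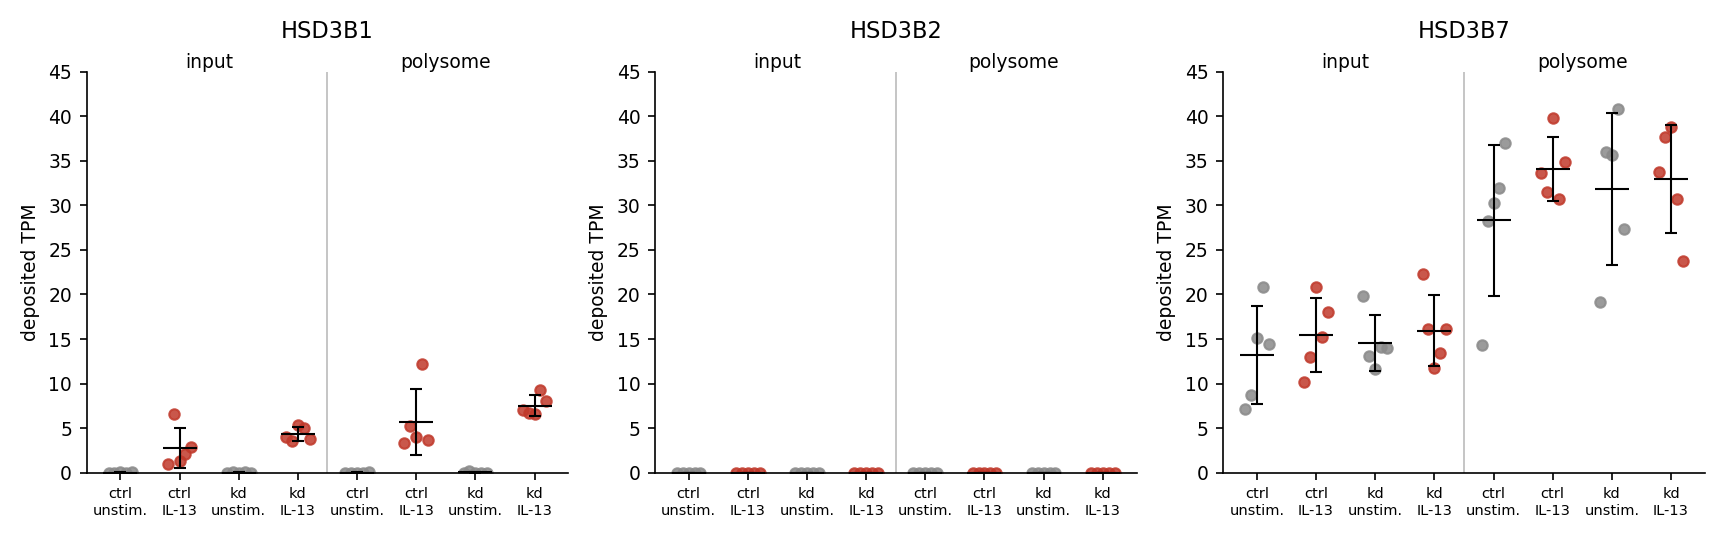
HSD3B1, HSD3B2 and HSD3B7 in each library on the deposited length-scaled TPM scale (vertical axis) in the 8 groups (ctrl, control line; kd, knockdown line; unstim., no IL-13). Points are libraries, grey unstimulated and red IL-13, and black marks are the mean ± SD. HSD3B2 lies at 0 throughout, HSD3B7 between 7.13 and 40.8 TPM, and HSD3B1 at most at 0.194 TPM without IL-13.

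On the length-scaled TPM scale HSD3B7 was the main HSD3B transcript in every group. HSD3B7 averaged 23.3 TPM over the 40 libraries (7.13 to 40.8), and HSD3B1 averaged 5.08 TPM (0.991 to 12.2) over the 20 IL-13 libraries and at most 0.194 in any unstimulated library. Of the TPM summed over the 3 genes, HSD3B1 held 14.9% ± 10.8 in control input, 22.2% ± 6.77 in knockdown input, 14.0% ± 8.32 in control polysome and 19.1% ± 4.90 in knockdown polysome RNA with IL-13 (SD, n = 5). Without IL-13 its group means were at most 0.195%. The ratio of HSD3B7 to HSD3B1 TPM with IL-13 was 8.24 ± 4.98 in control input and 3.82 ± 1.38 in knockdown input, with ranges of 1.98 to 15.4 and 2.18 to 5.55 that overlapped.

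Around HSD3B1 in its pathway, 96 genes in 7 lists were followed, of which 53 passed the filter. No gene of these lists was called for IL-13 or for the line in edgeR, in either fraction. Of the 53, an unadjusted p under 0.05 was reached by 2 for IL-13 in input (3.77%, beside 1.96% of all genes tested) and by 6 in polysome RNA (11.3% beside 5.28%). For the line it was reached by 8 in input (15.1% beside 5.87%) and by 13 in polysome RNA (24.5% beside 14.7%). The Wald test of DESeq2 called 1 of them, the fatty acid transporter and ligase SLC27A2, for the line in polysome RNA (0.81 on the log2 scale, adjusted p = 0.0424). Without the unstimulated control cultures numbered 1, edgeR called SLC27A2 there (1.05) and GATA6 for the line in input (0.86). The IL-13 differences in input ran from -1.49 (NR4A1) to 1.48 (CYP11A1), with a median of 0.03 beside 0.00 over all genes. In polysome RNA they ran wider, from -3.48 ± 1.48 (SE) for AKR1C1, whose close copies make its counts depend on read assignment, to 2.60 ± 0.965 for NR3C2, the mineralocorticoid receptor, with a median of 0.00 beside -0.02. Both ends are poorly measured. For AKR1C1 the line difference in polysome RNA had an SE of 3671 over both treatments, and with IL-13 it was 0 with no SE. For NR3C2 it was 3.08 ± 0.974 over both treatments and 0.19 ± 1.02 with IL-13. The fitted rise of NR3C2 was therefore larger in control cells, and 2.60 need not hold in knockdown cells. NR4A1, a nuclear receptor that regulates steroid enzyme genes, measured -1.49 ± 0.636 in input and -2.14 ± 0.688 in polysome RNA, with unadjusted p of 0.0243 and 0.00353 and adjusted p of 1.00 and 0.415 in edgeR. These NR4A1 values are averages over both lines. Its knockdown minus control difference in input was -1.53 ± 0.637 over both treatments and 0.003 ± 0.888 with IL-13 alone. In polysome RNA that difference was -2.12 ± 0.688 and -0.68 ± 0.956. In both fractions the fitted fall was therefore larger in control cells, and the averaged fall need not hold in knockdown cells. The fall in each line was not tested. In polysome against input RNA 23 of the 53 were called higher and 16 lower, with a median of 0.14, where 26.2% and 38.9% of all genes were called and their median was -0.24.

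Genes that deliver cholesterol to mitochondria and cleave its side chain supply the first steroid. TSPO averaged 281 TPM, FDXR 90.6, FDX2 46.6 and STARD3 18.0, while the delivery protein STAR was at 0.0167 TPM and the cleaving enzyme CYP11A1 at 0.363. The IL-13 differences in input were 0.17 ± 0.174 (SE) for TSPO and 0.18 ± 0.162 for FDXR. CYP11A1 stood at 1.48 ± 0.969, an error that spans a wide range. In polysome against input RNA 3 of the 6 tested genes were higher, where 26.2% of all genes were: FDXR at 1.15 ± 0.116, FDX1 at 0.70 ± 0.0908 and TSPO at 0.30 ± 0.123.

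A second group makes, releases or sulfates the substrates of HSD3B1. CYB5A, the electron donor that aids CYP17A1, averaged 121 TPM, POR 22.1, PAPSS2 15.8 and PAPSS1 11.7, and CYP17A1 itself was at 0.00152. CYB5A measured 0.34 ± 0.106 with IL-13 in input (unadjusted p = 0.00278, adjusted 0.596 in edgeR) and 0.33 ± 0.107 in polysome RNA. Of the 6 genes tested 5 were lower in polysome than in input RNA, as were 38.9% of all genes, PAPSS2 by -1.27 ± 0.121 and POR by -0.99 ± 0.188 among them, and SULT2B1 was higher (0.90 ± 0.212).

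Later steroid enzymes use or remove the products. HSD17B10 averaged 436 TPM, HSD17B7 51.0, HSD17B11 18.4 and AKR1C3 17.1, and the adrenal enzymes CYP11B1 and CYP11B2 were listed at 0. AKR1C3, which reduces androstenedione to testosterone, measured 0.50 ± 0.257 with IL-13 in input (unadjusted p = 0.0597) and 0.10 ± 0.259 in polysome RNA. It has close copies (AKR1C1, AKR1C2), so its counts depend on read assignment. Of 15 tested genes 9 were higher and 3 lower in polysome RNA, beside 26.2% and 38.9% of all genes, with HSD17B10 at 1.71 ± 0.096 and HSD17B7 at 1.43 ± 0.137.

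Among receptors, the progesterone-binding membrane proteins PGRMC1 and PGRMC2 averaged 84.0 and 74.6 TPM, the glucocorticoid receptor NR3C1 25.1 and the orphan receptor ESRRA 16.4. The oestrogen and progesterone receptors ESR1 and PGR were at 0.00107 and 0.00122 TPM. NR3C1 measured 0.02 ± 0.184 and PGRMC1 0.02 ± 0.173 with IL-13 in input.

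Of the regulators of steroid enzyme genes, CEBPB averaged 58.3 TPM, STAT6 24.2, GATA2 18.4 and STAT5B 15.3. STAT6 RNA measured 0.03 ± 0.154 in input of IL-13 cells against unstimulated ones and -0.08 ± 0.155 in polysome RNA, with no call. NR5A1, the master regulator of adrenal and gonadal steroid genes, was at 0.0121 TPM.

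In the bile acid and oxysterol list, where HSD3B7 acts, the sterol receptor NR1H2 averaged 107 TPM, SCP2 81.4, HSD17B4 22.3 and the sterol hydroxylase CYP27A1 12.2. CYP7A1, CYP7B1 and CH25H, which make the hydroxylated sterols upstream of HSD3B7, were at most 0.00333 TPM. None of the 8 tested genes was called for IL-13 (unadjusted 0 in input and 0 in polysome RNA), and 5 were higher and 3 lower in polysome RNA (all genes, 26.2% and 38.9%), with CYP27A1 at 1.04 ± 0.109 and HSD17B4 at -2.23 ± 0.227. NSDHL, a related sterol dehydrogenase of cholesterol synthesis, averaged 80.6 TPM and measured 0.23 ± 0.191 with IL-13 in input.

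**Figure D4:**
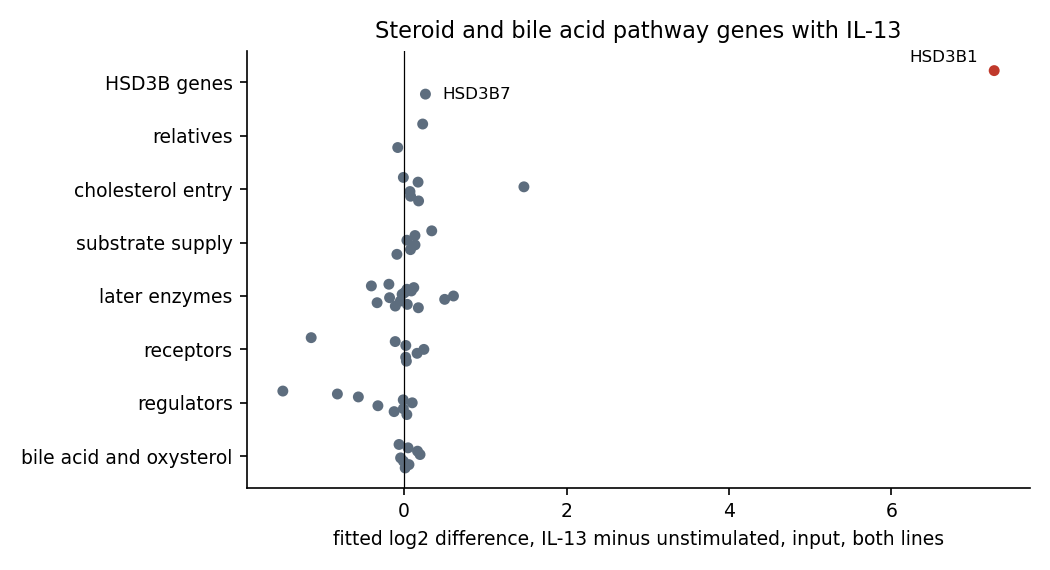
Fitted log2 difference of IL-13 minus unstimulated in input, averaged over both lines (horizontal axis), for the tested genes of each pathway list (rows). Each point is a gene, with HSD3B1 in red. The other points lie between -1.49 and 1.48, with HSD3B7 at 0.26, and HSD3B1 stands at 7.27. HSD3B1 was chosen by this difference, so its place is a description. Its unstimulated input libraries held at most 2 estimated counts each, so the size of its fitted value is poorly measured.

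HSD3B1 and HSD3B2 are neighbours on chromosome 1, and protein-coding genes close to HSD3B1 in the RefSeq order were WARS2, HAO2 and HSD3B2 on one side and ZNF697 and PHGDH on the other. None of WARS2, ZNF697 and PHGDH was called for IL-13, and HAO2 was above 0 in 2 unstimulated libraries. In input WARS2 measured 0.02 ± 0.169 (SE), ZNF697 -0.36 ± 0.358 and PHGDH -0.18 ± 0.244 with IL-13, each with an adjusted p of 1.00 in edgeR, and in polysome RNA 0.28 ± 0.170, -0.50 ± 0.371 and -0.45 ± 0.246. PHGDH, the first enzyme of serine synthesis, was called lower in knockdown polysome RNA (-0.91, adjusted p = 0.0494 in edgeR, both treatments averaged), where 1.38% of all genes were called. It was not called in input (-0.78, edgeR adjusted p = 0.247) or in polysome RNA with IL-13 alone (-0.82, edgeR adjusted p = 0.411). The highest unstimulated library held 378 TPM of PHGDH, against an unstimulated mean of 107.

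Genes whose levels across the 40 libraries most resembled HSD3B1 were ranked by Pearson r of log2(CPM + 1) among 16735 genes. CISH, a feedback inhibitor of cytokine signalling, stood at r = 0.943, with means of 2.51 CPM unstimulated and 43.0 CPM with IL-13. PPFIBP2 (0.871), RFLNA (0.869) and CCL26 (0.863), an eosinophil-attracting chemokine, were next among those named, followed by NABP1 (0.845), RASD2 (0.831), the protease inhibitor SPINT2 (0.818), the natriuretic peptide NPPB (0.817) and TEX2 (0.803). Over all genes the median r was -0.04 and the 99th percentile 0.384. The 40 libraries fall into 2 sets by treatment, and r over them reads mainly that separation. Within the 20 IL-13 libraries, after the mean of each fraction was subtracted, r with HSD3B1 was -0.29 for CISH, -0.18 for PPFIBP2, 0.11 for RFLNA and 0.04 for CCL26, and at most 0.42 for any of the 10 most similar genes.

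**Figure D5:**
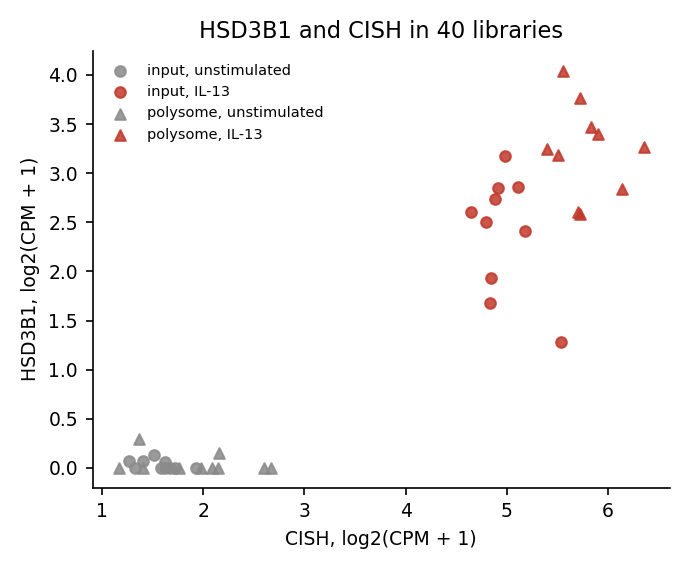
HSD3B1 (vertical axis) against CISH (horizontal axis), both as log2(CPM + 1), in the 40 libraries. Circles are input and triangles polysome libraries, grey unstimulated and red IL-13. Red and grey points form separate sets, and r is 0.943 over all points and -0.29 within the red set after removing fraction means.

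The genes most like HSD3B1 within the 20 IL-13 libraries were others. Among 13048 genes of at least 1 CPM there, MARCKS (r = 0.767), CNN1 (0.763), PROSER2 (0.760), ENSG00000287769 (0.755) and ZNF783 (0.741) ranked highest, where the 99th percentile of all genes was 0.591. Depth, line and handling of a library are shared by all its genes. CNN1, an actin-binding protein of contractile cells, was called higher in knockdown input (0.96 ± 0.198, adjusted p = 0.0103 in edgeR, both treatments averaged). It was not called in polysome RNA (0.72, edgeR adjusted p = 0.0547, both treatments averaged). With IL-13 alone it was not called in input (0.83, edgeR adjusted p = 0.682) or polysome RNA (0.67, edgeR adjusted p = 0.397). None of the 5 genes was called for IL-13 in input or polysome RNA. Of the 10 genes most similar over 40 libraries, 6 had a promoter window. Of these, 2 (PPFIBP2 and TEX2) held TTCNNNNGAA and 3 (CISH, PPFIBP2 and TEX2) held TTCNNNGAA, beside 7.80% and 9.38% of 27305 genes with a window. The 10 genes mainly follow the separation by treatment that also chose HSD3B1, and a gene with more windows had more chances to match. PPFIBP2 matched in its windows 3, 4 and 5, while the 27305 genes had 35116 windows. These counts are a description, and enrichment was not tested. Of the 5 genes most similar within the IL-13 libraries, 4 had a window and 0 held either motif.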

How the data were processed

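RNA of 40 libraries, poly(A)-selected per the labels' protocols, was given in 1 deposited table as estimated counts with decimals, whose library totals differ. The deposited TPM, which the authors computed per gene and library, summed to between 82.3% and 85.9% of 1000000. Salmon, Trimmomatic, MultiQC and DESeq2 are named, with no version, per the submitters' processing notes, and the build and annotation are not given in the sources used here. Of 62263 versioned Ensembl IDs, 62246 matched a symbol.

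The design had assumed counts, so the estimated counts were rounded. The filter was filterByExpr with the 8 groups, and the genes it kept held no less than 99.91% of any library. A quasi-likelihood model with TMM scaling, 1 mean per group and 32 residual degrees of freedom was fitted in edgeR 4.0.16 (R 4.3.3). Two-sided p-values were adjusted over 16735 genes by Benjamini-Hochberg, with 0.05 as the threshold for a call. CPM used TMM-scaled library sizes. Exact permutation tests of log2(CPM + 1) used scipy 1.17.1. Counts have no molecular identifiers, so Poisson intervals and the floor of 3 counts cover counting error only.

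The members, lists and tests were chosen with earlier results of these data known. Named were HSD3B1, HSD3B2, HSD3B7 and IGF2BP3, the 4 members of highest mean TPM in each list, every list member called for IL-13 or the line, the 10 genes of highest r over 40 libraries and the 5 within the IL-13 libraries, and near neighbours on each side. Other list genes were named after their values were seen. Some genes that met the rules are not reported here and are included in counts. Promoter sequences came from RefSeq (GRCh38.p14, all 3 genes matched), coding sequences and 31-base words from GENCODE release 29, aligned with Biopython 1.88, and none of these was needed for the counts.

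In 80 pairs of libraries within groups the lowest chi-square per degree of freedom was 15.5, so no copy was found within a group. Pairs across groups were not part of this check. On simulated data the model recovered 31% and 65.5% of 200 genes changed 2-fold and 4-fold for the line in input with IL-13 (among 16354 and 16371 genes), and 27% and 61.5% for polysome against input in control cells with IL-13 (among 16368 and 16364). The 200 genes were drawn at random over all levels, so these rates are not those for HSD3B1. For the fraction, 39.3% of genes were called in the data, far more than were changed in the simulation. Alternatives were the Wald test of DESeq2 1.42.0, its size factors in edgeR, a replicate block, a fit on only the libraries compared, a minimum of 1 count in all in place of the filter, a pseudocount of 0.1, deposited TPM, leaving out the 3 libraries under 5000000 counts, leaving out unstimulated control culture 1, and leaving out each library in turn. The replicate block was the replicate number for line and IL-13 comparisons and the numbered culture for comparisons of fractions.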

Additional observations from a re-analysis of the deposited data

Results flagged for a closer look

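Of 20 values per gene and group examined, 2 had a library that stood apart from the other 4. Both were HSD3B1 in unstimulated polysome RNA, where the other 4 libraries were at 0: control replicate 5 at 0.111 CPM, from 1 count, and knockdown replicate 2 at 0.224 CPM, from 4 counts. With 4 libraries at 0, a single library with any count stands apart by this measure, so the rate of about 1 in 20 groups that chance gives does not apply to them.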

How the results depend on the processing

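Of 371 values under alternatives, 331 kept their direction and their side of the threshold, or stayed within 1.5 times for counts. In control cells polysome against input for HSD3B1 was called without the libraries under 5000000 counts (1.21, adjusted p = 0.0469) and by the Wald test of DESeq2 (1.15), and its range with single libraries left out was 0.72 to 1.58. In knockdown cells it was called with only the libraries compared (0.96, adjusted p = 0.00235) and in the unpaired exact permutation test (0.70), with a range of 0.69 to 0.86. Averaged over both lines the range was 0.76 to 1.19, and over 7 other alternatives 0.93 to 1.09, all called. The difference in loading between lines ran from -0.78 to 0.082. The HSD3B7 line difference reversed in input without unstimulated control culture 1 (-0.069) and in polysome RNA without the libraries under 5000000 counts (0.16), and with single libraries left out it ran from -0.084 to 0.17 and from -0.16 to 0.0052. The fraction effect of HSD3B7 stayed called throughout, from 1.16 to 1.41, and only the libraries compared gave no further value there because all 40 are compared. The pathway lists had 1 call by the Wald test of DESeq2 and 2 without unstimulated control culture 1 (GATA6 for the line in input, 0.86, and SLC27A2 in polysome RNA, 1.05), and 0 under the other 5. The cause of these changes was not tested.

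Over all genes the called counts were 25 for IL-13 in input (25 to 51 under alternatives) and 35 in polysome RNA (21 to 82), 68 for the line in input (56 to 224) and 231 in polysome RNA (40 to 532), 0 and 15 for the line with IL-13 (0 to 55 and 0 to 144), and 1 for loading between lines (0 to 10). The replicate numbers did not pair the libraries in most settings: 9 of 20 correlations between numbered input and polysome libraries and 12 of 40 across lines and treatments were over 0.1, and 4 and 5 libraries correlated best with their own number. Among these were input and polysome numbers 1, 3 and 5 of unstimulated control cells (0.59, 0.62 and 0.46). Unstimulated and IL-13 knockdown input did so for numbers 1, 3 and 4 (0.44, 0.73 and 0.40). With a block for replicate number HSD3B1 gave 0.79 and 0.34 for the line in input and polysome RNA. The comparisons of fractions used a block for numbered culture, which assumes that equal numbers share a culture. There HSD3B1 gave 1.21 (edgeR adjusted p = 0.0503), 0.80 and 1.00 for polysome against input in control, in knockdown and in both. It gave -0.41 for loading between lines, and HSD3B7 gave 1.23 for the fraction. Neither block ended a call or added one for these genes. Depth limits HSD3B1 most without IL-13, where no library held more than 4 counts, and in the 3 libraries under 5000000 counts.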
